A study of Mus musculus with 6 samples.

Results

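The unfolded protein response and the machinery that folds, checks and exports secreted proteins were described here through 44 genes in 3 pools of mouse spleen CD4+ T cells. The genes were chosen by name, from the known parts of the response and of the entry route into the endoplasmic reticulum (ER), out of 38216 gene symbols in the table. Earlier results of these data were known when the choice was made. All 44 passed the filter on low values, which kept 13311 genes with at least 1 TPM (transcripts scaled to a fixed total per library) in at least 2 of the 6 libraries. TPM is a transcript's share of a library after correction for its length, so levels can be compared between genes. The genes fall into 6 roles: 6 stress sensors and transcription factors, 9 chaperones and their partners, 6 disulfide and proline isomerases, 7 genes of ER-associated degradation, 13 genes of targeting, translocation and signal peptide removal, and 3 genes of vesicle export.

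The cells came from the spleens of naïve C57BL/6 mice on postnatal day 28. All mice carried the IL21-VFP reporter, in which transcription of Il21, a cytokine gene of follicular helper T cells, makes the fluorescent protein VFP. Sorting used VFP together with ICOS, a costimulatory receptor that appears on activated T cells. The pool called N had neither (VFP-ICOS-), ACT had ICOS alone (VFP-ICOS+), and ACT IL21 had both (VFP+ICOS+). Each pool was sequenced as 2 libraries. Whether those 2 came from separate animals is not given in the labels, so p-values measure nothing wider than the spread from library to library, and that spread may be technical. In these bulk pools, fewer cells of a type and less RNA per cell cannot be told apart.

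Proteins bound for the cell surface or for secretion enter the ER through a membrane channel, lose their signal peptide, and are folded with the help of chaperones and oxidising enzymes. When unfolded protein accumulates, 3 sensors in the ER membrane respond: IRE1 (gene Ern1) splices the Xbp1 messenger, ATF6 is cut to release a transcription factor, and PERK (Eif2ak3) slows translation while favouring that of Atf4. Their target genes encode chaperones, isomerases and the machinery that sends misfolded protein back to the cytosol for degradation, and plasma cells are known for a strong form of this programme. Splicing of Xbp1, cleavage of ATF6 and translation of Atf4 leave no trace in gene-level TPM, so the values below are amounts of messenger only.

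The DNA element that links this response to its chaperone targets is the ER stress response element, ERSE, which is CCAAT followed after 9 bases of any kind by CCACG and was searched on both strands. Upstream sequences (RefSeq, build GRCm38.p6) were at hand for 35 of the 44 genes, and 6 of these 35 genes (17.1%) held the exact element, against 39 of 32851 promoters of all genes (0.119%). The 44 genes were picked as known parts of this response, so these shares describe the list and test nothing. These windows span 250 bases before and 50 after each RefSeq start. The 7 matches are shown with their flanks, 5′ to 3′ on the gene's strand and with the element in capitals, because 2 of the 6 genes, Hspa5 and Hsp90b1, are among those that differed between ACT and N.
Creld2 (chr15:88819505-88819553, + strand): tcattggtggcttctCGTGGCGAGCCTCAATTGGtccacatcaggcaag
Dnajc3 (chr14:118937812-118937860, + strand): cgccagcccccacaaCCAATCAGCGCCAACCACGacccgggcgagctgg
Hsp90b1 (chr10:86705623-86705671, - strand): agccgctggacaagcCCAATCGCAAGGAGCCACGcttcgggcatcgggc
Hsp90b1 (chr10:86705518-86705566, - strand): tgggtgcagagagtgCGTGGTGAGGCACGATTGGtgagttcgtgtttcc
Hspa5 (chr2:34772010-34772058, + strand): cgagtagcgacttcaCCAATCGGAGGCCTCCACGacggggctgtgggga
Pdia6 (chr12:17266476-17266524, + strand): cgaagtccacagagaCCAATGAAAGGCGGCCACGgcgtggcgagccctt
Syvn1 (chr19:6046517-6046565, + strand): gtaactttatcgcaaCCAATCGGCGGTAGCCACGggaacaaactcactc

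Hsp90b1 carried 2 copies, 212 to 194 and 107 to 89 bases before its start, and Hspa5 carried it at 65 to 47 bases. When 1 fixed letter was allowed to differ, a choice made after the promoters had been read, 14 of 35 genes (40%) held a match, against 1.5% of all promoters. Pdia3 was among those added, with its match 29 to 11 bases before the start. The related ERSE-II, ATTGG followed after 1 base by CCACG on either strand, was found in Dnajb11 and Herpud1 (5.71% of the 35 genes, 0.0365% of all promoters). TGACGTGG, the element bound by XBP1 and ATF6, was found in Sec24d alone (2.86% of the 35 genes, 0.676% of all promoters). The amino acid response element TGATGNAAN was found in Herpud1 alone, which is 2.86% of the 35 genes and below the 3.95% of all promoters. A match is a description of letters and not a site of binding.

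The 250 bases before the RefSeq start follow for 4 genes that differed between ACT and N: Hspa5 and Hsp90b1 with exact elements, Pdia3 with 1 changed letter, and Ero1l, which held none of the searched elements. Ern1 also differed, held none of the searched elements and is not shown. Atf6 and Sec11c differed too, but no upstream sequence was at hand for them. Capitals mark every ERSE match with at most 1 fixed letter changed, and exact matches only of the other elements. GENCODE M21 opens the 4 genes shown before the RefSeq start, so the later bases of each window lie inside its gene model.
Hspa5 (chr2:34771840-34772089, + strand): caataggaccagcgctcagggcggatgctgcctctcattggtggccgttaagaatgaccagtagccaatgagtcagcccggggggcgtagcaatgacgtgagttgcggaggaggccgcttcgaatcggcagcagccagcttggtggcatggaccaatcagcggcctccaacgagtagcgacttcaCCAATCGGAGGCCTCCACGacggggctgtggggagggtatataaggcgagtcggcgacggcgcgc
Hsp90b1 (chr10:86705445-86705694, - strand): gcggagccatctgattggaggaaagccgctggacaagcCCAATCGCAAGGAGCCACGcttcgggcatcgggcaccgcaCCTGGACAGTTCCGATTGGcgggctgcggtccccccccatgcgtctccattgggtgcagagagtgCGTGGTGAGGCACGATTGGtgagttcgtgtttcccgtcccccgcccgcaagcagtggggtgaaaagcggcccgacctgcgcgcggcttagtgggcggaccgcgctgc
Pdia3 (chr2:121413652-121413901, + strand): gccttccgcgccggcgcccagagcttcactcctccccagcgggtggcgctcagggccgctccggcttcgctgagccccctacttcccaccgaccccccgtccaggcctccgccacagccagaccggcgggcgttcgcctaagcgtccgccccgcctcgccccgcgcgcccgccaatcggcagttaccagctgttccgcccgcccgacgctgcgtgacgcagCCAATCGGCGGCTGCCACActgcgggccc
Ero1l (chr14:45318573-45318822, - strand): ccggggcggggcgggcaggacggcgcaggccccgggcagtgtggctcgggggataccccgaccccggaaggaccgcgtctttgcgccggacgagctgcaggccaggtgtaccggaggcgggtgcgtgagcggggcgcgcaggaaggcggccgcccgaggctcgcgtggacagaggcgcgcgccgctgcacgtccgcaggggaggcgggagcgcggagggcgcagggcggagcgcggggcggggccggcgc

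The pools carried T cell transcripts throughout: the 7 T cell markers listed summed to between 3418 and 5189 TPM. RNA from plasma cells, which are rich in secretory transcripts, was looked for with 14 markers, of which 13 were in the table. Mzb1, Tnfrsf17, Fkbp11, Igha and Ighg1 were listed at 0 in all 6 libraries, and Sdc1 reached at most 0.33 TPM. The list summed to 497 and 337 TPM in N, 689 and 548 in ACT, and 392 and 483 in ACT IL21, most of it from Ighm, at 317 to 594 TPM. Of the 5 tested members of this list, 2 were higher in ACT than in N, Prdm1 and Irf4, where 4.15% of all tested genes were. All 5 estimates were above 0, against 52.1% of all tested genes. Irf4, a factor of plasma cells and of activated T cells, stood at 4.93 and 5.82 TPM in N, 34.6 and 26.2 in ACT, and 30.9 and 42.1 in ACT IL21, and was higher than N in both (limma adjusted p = 0.00347 and 0.00292). The part of this list in the results that follow was not tested. Igkc stood at 73.6 TPM and Igj at 5.12 TPM in ACT IL21 replicate 2, against at most 8.91 and 0.50 TPM elsewhere. Among 10 B cell markers Pax5 and Blk were listed at 0 in every library. The list summed to 1.83 to 6.07 TPM in N and ACT and to 15.4 and 20.4 TPM in ACT IL21, where Cd22 made up 13.1 and 17.4 TPM. Cst3 gave most of the sum of the myeloid and dendritic list, which was 30.4 to 36.8 TPM in N, 56.2 to 72.3 in ACT and 54.7 to 55.1 in ACT IL21, with Siglech, S100a8 and S100a9 listed at 0. Of the CD8 markers, Cd8a reached at most 0.36 TPM and Cd8b1 stood at 18.7 to 26.7 TPM in N against 3.41 to 9.80 TPM elsewhere.

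Transcripts typical of natural killer and NKT cells also separated the pools. The 8 such markers summed to 50.5 and 57.3 TPM in N, 1100 and 978 in ACT, and 209 and 172 in ACT IL21. Klrb1c, which encodes the NK1.1 antigen, stood at 2.56 and 2.38 TPM in N, 166 and 177 in ACT, and 25.5 and 25.7 in ACT IL21, while Ncr1, a marker of natural killer cells, never exceeded 1.06 TPM. Klrd1 had another order, at 33.3 and 38.0 TPM in N, 88.5 and 85.9 in ACT, and 6.42 and 13.9 in ACT IL21. There it was below N by a log2 difference of -1.80 ± 0.32 (limma adjusted p = 0.0198). Klrk1 and Gzma overlapped between ACT IL21 and N. Of the 7 markers tested, 5 were higher in ACT than in N and 0 lower, where 4.15% and 1.43% of all tested genes were. In ACT IL21 against N 2 were higher and 1 lower, against 3.82% and 1.26%. The part of these markers in the results that follow was not tested. Prdm1, a transcription factor of plasma cells and of effector T cells, followed the order of the summed markers: 8.49 and 8.36 TPM in N, 38.6 and 45.9 in ACT, 10.5 and 13.3 in ACT IL21.

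Most of the calls came from ACT against N. Of the 44 genes, 7 were higher in ACT and 0 lower at an adjusted p under 0.05 (limma on log2(TPM + 1), Benjamini-Hochberg over 13311 genes), where 4.15% of all tested genes were higher and 1.43% lower. The 7 were the sensors Atf6 and Ern1, the chaperones Hspa5 and Hsp90b1, the folding enzymes Pdia3 and Ero1l, and the signal peptidase subunit Sec11c. At an unadjusted p under 0.05, 19 of the 44 were higher and 1 lower, against 1541 and 930 of the 13311. The estimate was above 0 for 40 genes and below 0 for 4, where it was above 0 for 52.1% of all tested genes. The median log2 difference was 0.38, against 0.02 over all tested genes. In 28 genes both ACT libraries lay above both N libraries and in 1, Dnajb9, both lay below, against 25.2% and 21.9% of all tested genes. The count of 7 fell to 2 or 3 when any 1 of the 6 libraries was left out. Ero1l and Sec11c were the calls that held in each of those 6 fits.

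Summed over the 44 genes, TPM came to 3827 and 4060 in N, 5722 and 5754 in ACT, and 4627 and 4577 in ACT IL21. The sums of the pools did not overlap: ACT was highest, ACT IL21 in the middle and N lowest. The mean sum of ACT was 1.45 times that of N, and that of ACT IL21 was 1.17 times that of N. The 9 chaperones had a mean sum of 1336 TPM in N, 2147 in ACT and 1498 in ACT IL21. The 13 targeting and translocation genes gave 1320, 1844 and 1538 TPM, and the 6 isomerases 591, 880 and 669. By these means the 7 degradation genes had another order, with 393 TPM in N, 464 in ACT and 482 in ACT IL21. So had the 6 sensors and factors, with 252, 332 and 347. In both groups the sums of ACT and ACT IL21 overlapped. Those of the sensors and factors were 381 and 283 TPM in ACT and 346 and 348 in ACT IL21. A sum weighs genes by their abundance, and Hsp90b1 and Hspa5 were the 2 most abundant.

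**Figure D1:**
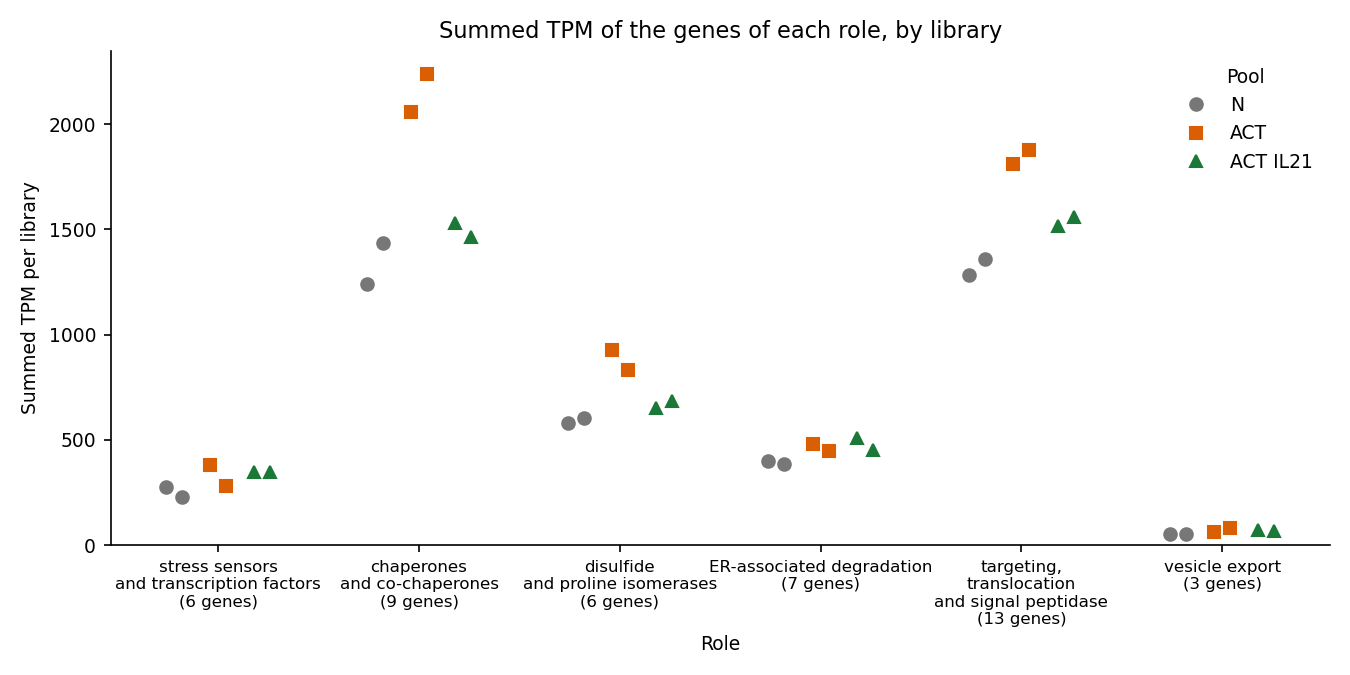
Summed TPM of the genes of each role in each of the 6 libraries (1 point a library, 2 a pool, on a linear axis from 0). Chaperones, isomerases and targeting genes were highest in both ACT libraries, whereas the sums of the degradation genes in ACT (446 and 481) and ACT IL21 (454 and 511) overlapped.

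Atf6 (chr1:170704674-170867771, minus strand, GRCm38 with GENCODE M21, as for all genes placed below), a membrane-bound sensor whose cut fragment drives chaperone genes, had the largest change of the 6 sensors and factors. Its level was 7.51 and 5.84 TPM in N, 28.3 and 20.6 in ACT, and 30.6 and 24.9 in ACT IL21. Both ICOS+ pools lay above N and overlapped each other. The log2 difference from N was 1.72 ± 0.30 (SE) in ACT (limma adjusted p = 0.0149) and 1.91 ± 0.30 in ACT IL21 (limma adjusted p = 0.0105). With the 2 pools fitted alone, the call of ACT was lost and that of ACT IL21 held. In the leave-one-out fits the adjusted p for ACT ran from 0.0336 to 0.157 and held only without ACT replicate 2. For ACT IL21 it ran from 0.0150 to 0.133 and held only when an ACT library was the one left out. ACT IL21 and ACT did not differ past the threshold (log2 difference 0.19 ± 0.30, limma adjusted p = 0.818).

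Ern1 (chr11:106394650-106487852, minus strand) encodes IRE1, the kinase and nuclease that splices Xbp1. Its level was 4.62 and 3.58 TPM in N, 13.3 and 16.4 in ACT, and 8.12 and 5.83 in ACT IL21. The 3 pools did not overlap, with ACT highest and N lowest. ACT was above N by 1.64 ± 0.36 (limma adjusted p = 0.0424), but the adjusted p rose to between 0.0786 and 0.306 whichever library was left out. It was also lost with quantile normalization, without the filter on low values, with the 2 pools fitted alone and with a replicate block. ACT IL21 was 0.64 ± 0.36 above N on the log2 scale and at 0.470 times the mean of ACT, neither past the threshold (limma adjusted p = 0.413 and 0.254).

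Eif2ak3, the gene of PERK, had another order. It stood at 11.1 and 9.99 TPM in N, 11.5 and 8.98 in ACT, and 5.10 and 5.93 in ACT IL21. Both ACT IL21 libraries lay below the other 4, and the log2 difference from N was -0.82 ± 0.34 (limma adjusted p = 0.240) and from ACT -0.78 ± 0.34 (limma adjusted p = 0.336), so no difference passed the threshold. ACT and N overlapped (log2 difference -0.05 ± 0.34).

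The transcription factors downstream of the sensors did not pass the test. Xbp1, which drives secretory genes once spliced, stood at 90.0 and 71.3 TPM in N, 132 and 84.4 in ACT, and 100.4 and 127 in ACT IL21. The spread between the 2 ACT libraries covered most of the range, and no difference passed the threshold (adjusted p of at least 0.349 in each comparison, limma). Atf4, the factor of the PERK arm, stood at 131 and 106 TPM in N, 137 and 105 in ACT, and 167 and 153 in ACT IL21. ACT IL21 lay above the other 4 libraries, by a log2 difference of 0.44 ± 0.19 from N that did not pass the threshold (limma adjusted p = 0.266). The difference of ACT from N was 0.03 ± 0.19 and took the other sign under all 3 other scalings. Ddit3, the CHOP gene, a stress-induced factor downstream of Atf4, stood at 29.4 and 33.0 TPM in N, 58.1 and 47.0 in ACT, and 35.3 and 31.8 in ACT IL21. Both ACT libraries lay above the other 4, with a log2 difference from N of 0.73 ± 0.21 that missed the threshold (limma adjusted p = 0.0939).

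**Figure D2:**
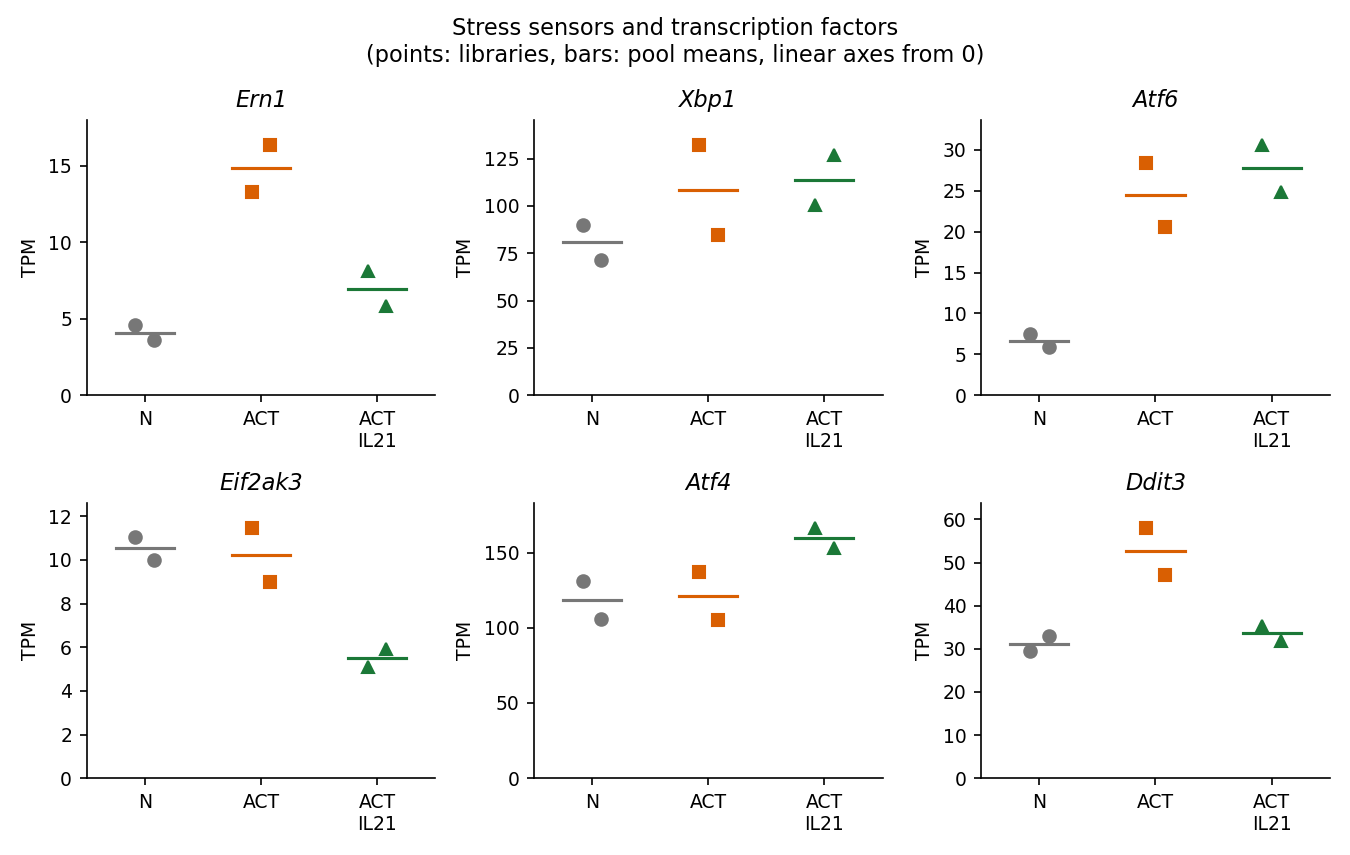
TPM of the 6 stress sensors and transcription factors in each library, 1 panel a gene with its own axis from 0; points are libraries and bars the mean of 2. Atf6 was high in both ICOS+ pools, Ern1 and Ddit3 were highest in ACT, and Eif2ak3 was lowest in ACT IL21, at 5.10 and 5.93 TPM.

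Of the 9 chaperones and co-chaperones, 2 were higher in ACT than in N and 0 lower, where 4.15% and 1.43% of all tested genes were. Their median log2 difference was 0.68, against 0.02 over all tested genes. Hspa5 (chr2:34771970-34777547, plus strand) encodes BiP, the main ER member of the heat shock protein 70 family and a keeper of the sensors in their resting state. It stood at 405 and 489 TPM in N, 702 and 760 in ACT, and 506 and 532 in ACT IL21. The pools did not overlap, and ACT was 1.63 times N by the means (log2 difference 0.71 ± 0.15, limma adjusted p = 0.0305). This call was lost without the filter on low values, without an intensity trend and with the 2 pools fitted alone. Leaving out any 1 library raised the adjusted p to between 0.0768 and 0.223.

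Hsp90b1 (chr10:86690209-86705509, minus strand) encodes the ER form of heat shock protein 90, which folds integrins and Toll-like receptors, and was the most abundant of the 44 genes, with a mean of 656 TPM over the libraries. It stood at 440 and 525 TPM in N, 895 and 968 in ACT, and 591 and 518 in ACT IL21. ACT lay above the other 4 libraries, which overlapped. ACT was 1.93 times N (log2 difference 0.95 ± 0.15, limma adjusted p = 0.0106), a call that was lost without N replicate 1, ACT replicate 2 or either ACT IL21 library, where the adjusted p reached 0.113. The call of ACT against N was also lost without an intensity trend and with the 2 pools fitted alone. ACT IL21 was lower than ACT by a log2 difference of -0.75 ± 0.15, short of the threshold (limma adjusted p = 0.0537). It passed under 3 of the 16 alternatives, the stricter filter on low values, rescaling without ribosomal protein and receptor genes and quantile normalization, with adjusted p from 0.0412 to 0.0449. The gene shares exonic bases with a pseudogene on the opposite strand and with 2 short transcripts, so a part of its reads could belong to these.

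The other chaperones did not pass the test. Creld2, a cysteine-rich protein induced by ER stress and a holder of the exact element, stood at 8.19 and 6.35 TPM in N, 19.6 and 15.9 in ACT, and 7.61 and 16.3 in ACT IL21. Of its 2 ACT IL21 libraries, 1 lay between the N libraries and 1 above them, and the log2 difference of ACT from N was 1.19 ± 0.40 (limma adjusted p = 0.155). Sdf2l1, a partner of the BiP cycle, stood at 5.36 and 2.95 TPM in N, 9.82 and 9.14 in ACT, and 12.6 and 9.85 in ACT IL21. Every ICOS+ library lay above N, with a log2 difference of 1.06 ± 0.38 in ACT and 1.28 ± 0.38 in ACT IL21 (limma adjusted p = 0.181 and 0.117). Dnajb9, a co-chaperone that keeps IRE1 in check, ran the other way, at 84.3 and 77.1 TPM in N, 47.1 and 56.2 in ACT, and 53.1 and 57.6 in ACT IL21. Both ICOS+ pools lay below N, and the log2 difference of ACT was -0.64 ± 0.18 (limma adjusted p = 0.0887). For Hyou1, Dnajb11 and Dnajc3, further BiP partners, both ACT libraries exceeded both N libraries, with log2 differences of 0.68, 0.50 and 0.38 (limma adjusted p = 0.221, 0.120 and 0.210). Manf, a secreted stress protein, overlapped in all pools.

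Of the 6 isomerases, 2 were higher in ACT than in N and 0 lower, where 4.15% and 1.43% of all tested genes were. Their median log2 difference was 0.56, against 0.02 over all tested genes. Ero1l (Ero1a in RefSeq, chr14:45283087-45318771, minus strand) encodes the oxidase that feeds disulfide bonds to the isomerases, and had the smallest adjusted p of all 44 genes. It stood at 36.4 and 38.3 TPM in N, 129 and 118 in ACT, and 41.0 and 45.6 in ACT IL21. ACT was set apart from the other 4 libraries, at 3.31 times N (log2 difference 1.70 ± 0.17, limma adjusted p = 0.00133). This call held in all 16 alternative fits, with an adjusted p of at most 0.0290. ACT IL21 was only 0.21 ± 0.17 above N (limma adjusted p = 0.592).

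Pdia3 (chr2:121413775-121438687, plus strand), which isomerises disulfides in glycoproteins and in the loading of MHC class I, stood at 182 and 216 TPM in N, 333.1 and 332.9 in ACT, and 223 and 234 in ACT IL21. The pools did not overlap, and ACT was 1.67 times N (log2 difference 0.75 ± 0.14, limma adjusted p = 0.0228). This call was lost without an intensity trend and with the 2 pools fitted alone. No leave-one-out fit kept the call, with adjusted p from 0.0726 to 0.196. Pdia4, a relative of Pdia3, stood at 56.2 and 58.6 TPM in N, 94.9 and 71.6 in ACT, and 76.7 and 94.4 in ACT IL21. Both ICOS+ pools lay above N and overlapped each other, with log2 differences from N of 0.51 ± 0.20 and 0.56 ± 0.20 (limma adjusted p = 0.214 and 0.180). Pdia6 was above N in both ICOS+ pools by 0.60 and 0.34 without passing the test, whereas P4hb, the founding disulfide isomerase, and Ppib, the ER cyclophilin, overlapped between ACT and N.

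The degradation genes, which pull misfolded protein out of the ER, gave 0 calls of 7 in ACT against N and 1 of 7 in ACT IL21 against N. Over all tested genes 4.15% were higher and 1.43% lower in ACT, and 3.82% and 1.26% in ACT IL21. The called gene was Selk (Selenok in RefSeq, chr14:29968308-29975662, plus strand), a selenoprotein of the ER membrane that binds Derlin proteins and takes part in calcium flux in immune cells. It stood at 93.6 and 95.1 TPM in N, 119 and 109 in ACT, and 162 and 140 in ACT IL21. The pools did not overlap, in the order N, ACT, ACT IL21, and ACT IL21 was 1.60 times N (log2 difference 0.67 ± 0.15, limma adjusted p = 0.0493). The call held in 2 of 16 alternative fits, was lost without any 1 library, and its adjusted p ran up to 0.286. Derl2, a channel-like protein of the same route, stood at 57.7 and 68.4 TPM in N, 85.0 and 88.2 in ACT, and 100.6 and 79.8 in ACT IL21. Both ICOS+ pools lay above N, by log2 differences of 0.46 ± 0.18 and 0.50 ± 0.18 that did not pass the test (limma adjusted p = 0.234 and 0.191). The ligase Syvn1 and the stress-induced scaffold Herpud1, each with a stress element in its promoter window, overlapped between all pools. Edem1, which trims and hands over glycoproteins, ranged from 96.2 to 122 TPM over the 6 libraries.

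Targeting and translocation gave 1 call of 13 in ACT against N and the same gene in ACT IL21 against N. It was higher in both, where 4.15% and 3.82% of all tested genes were. Sec11c, a catalytic subunit of the signal peptidase, stood at 130.0 and 170 TPM in N, 383 and 435 in ACT, and 334 and 312 in ACT IL21. The pools did not overlap. ACT was 2.73 times N (log2 difference 1.45 ± 0.17, limma adjusted p = 0.00242), and this held in all 16 alternative fits with an adjusted p of at most 0.0359. ACT IL21 was 2.16 times N (log2 difference 1.12 ± 0.17, limma adjusted p = 0.00950). That call was lost without N replicate 1 or either ACT IL21 library and without an intensity trend, where the adjusted p reached 0.138. ACT IL21 was -0.33 ± 0.17 from ACT, which did not pass the threshold (limma adjusted p = 0.409).

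Tram1, a membrane protein beside the channel that helps signal sequences in, stood at 161 and 176 TPM in N, 258 and 244 in ACT, and 166 and 147 in ACT IL21. ACT lay above the other 4 libraries, 0.57 ± 0.14 above N (limma adjusted p = 0.0631) and with ACT IL21 -0.68 ± 0.14 from it (limma adjusted p = 0.0635), both short of the threshold. The 3 channel subunits did not pass the test: Sec61a1 was 0.26 above N in ACT, Sec61g 0.19 and Sec61b 0.43 on the log2 scale. The 2 ACT libraries differed by 2.25 times in Sec61b, the widest gap within a pool among the 44 genes. The signal peptidase subunits Spcs1 and Spcs2, which do not cut, were at log2 differences of -0.03 and 0.45 in ACT against N, neither past the threshold. The 4 translocon-associated Ssr genes ranged from 0.07 to 0.60 and the signal recognition particle genes Srp9 and Srp14 were at 0.09 and 0.29, none past the threshold.

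The 3 vesicle export genes gave 0 calls in each comparison, where at most 4.15% of all tested genes were higher and at most 1.43% lower. Sec23b, a coat protein of vesicles leaving the ER, stood at 29.1 and 24.9 TPM in N, 34.2 and 36.6 in ACT, and 38.0 and 29.6 in ACT IL21. Each ICOS+ library was above N, with log2 differences of 0.38 ± 0.22 and 0.31 ± 0.22 (limma adjusted p = 0.427 and 0.535). Sec24d, a cargo-binding coat protein and the least abundant of the 44 genes, stood at 3.76 and 4.71 TPM in N, 9.32 and 4.55 in ACT, and 6.36 and 7.93 in ACT IL21. Its ACT libraries fell on either side of the ACT IL21 pair, and no difference passed the threshold. Lman1, a cargo receptor for glycoproteins, was at a log2 difference of 0.34 in ACT against N (limma adjusted p = 0.632).

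**Figure D3:**
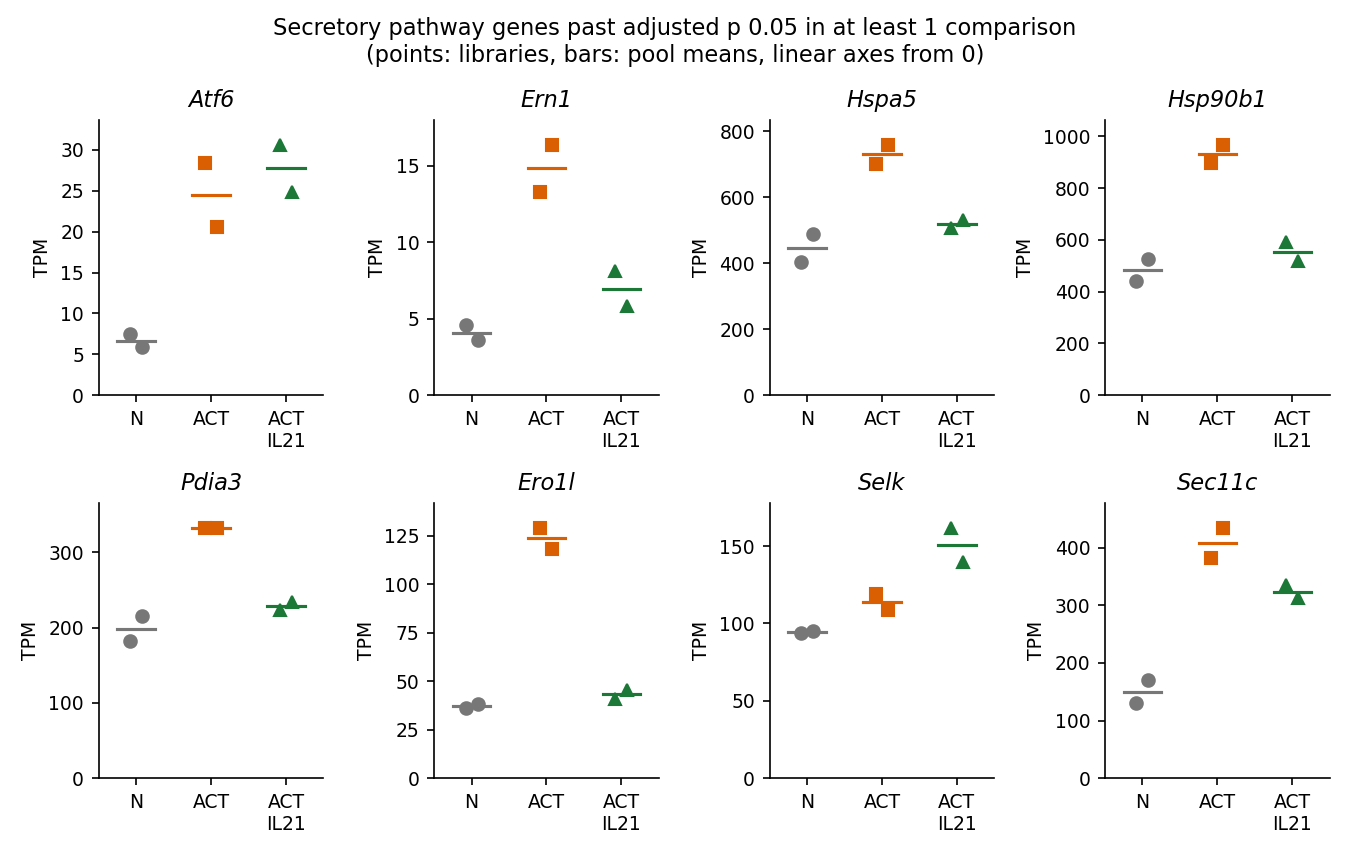
TPM in each library of the genes past the threshold in any comparison, 1 panel a gene with its own axis from 0; points are libraries and bars the mean of 2. Ero1l was at 36.4 to 45.6 TPM in N and ACT IL21 and at 118 and 129 in ACT, whereas Atf6 and Sec11c were raised in both ICOS+ pools and Selk was highest in ACT IL21.

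In ACT IL21 against N, 3 of the 44 genes were higher (Atf6, Sec11c and Selk) and 0 lower, where 3.82% of all tested genes were higher and 1.26% lower. The median log2 difference of the 44 was 0.23, against 0.10 over all tested genes. Scaling each library to the same median of log2 ratios took the 2 medians to 0.12 and -0.0034, and quantile normalization to 0.11 and -0.05. Estimates were above 0 for 33 genes and below 0 for 11, where 58.4% of all tested genes were above 0. In 23 genes both ACT IL21 libraries exceeded both N libraries and in 5 both lay below, against 31.5% and 19.9% of all tested genes. The 5 were Eif2ak3, Dnajb9, Ppib, Edem1 and Srp9, none of them past the threshold. The count of 3 fell to between 0 and 2 with 1 library left out, and was 0 without N replicate 1 or either ACT IL21 library.

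ACT IL21 against ACT is the comparison that sets the Il21-transcribing cells beside other ICOS+ cells. Of the 44 genes 1 was lower in ACT IL21, Ero1l, and 0 were higher, where 1.15% of all tested genes were lower and 0.796% higher. Ero1l was at 0.35 times its ACT level (log2 difference -1.49 ± 0.17, limma adjusted p = 0.00670). The call was lost without ACT replicate 1 or either ACT IL21 library, with an adjusted p of up to 0.120. At an unadjusted p under 0.05, 1 of the 44 genes was higher (Selk) and 11 lower, against 1130 and 848 of all tested genes. Estimates were below 0 for 30 genes, against 5781 of the 13311 tested. The median log2 difference was -0.12, against 0.08 over all tested genes. Both ACT IL21 libraries lay below both ACT libraries in 16 genes and above them in 3, against 17.3% and 24.5% of all tested genes. The 3 were Atf4, Sdf2l1 and Selk. The natural killer and NKT markers moved the same way, 6 of 7 tested being lower in ACT IL21 than in ACT, and their part was not tested.

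**Figure D4:**
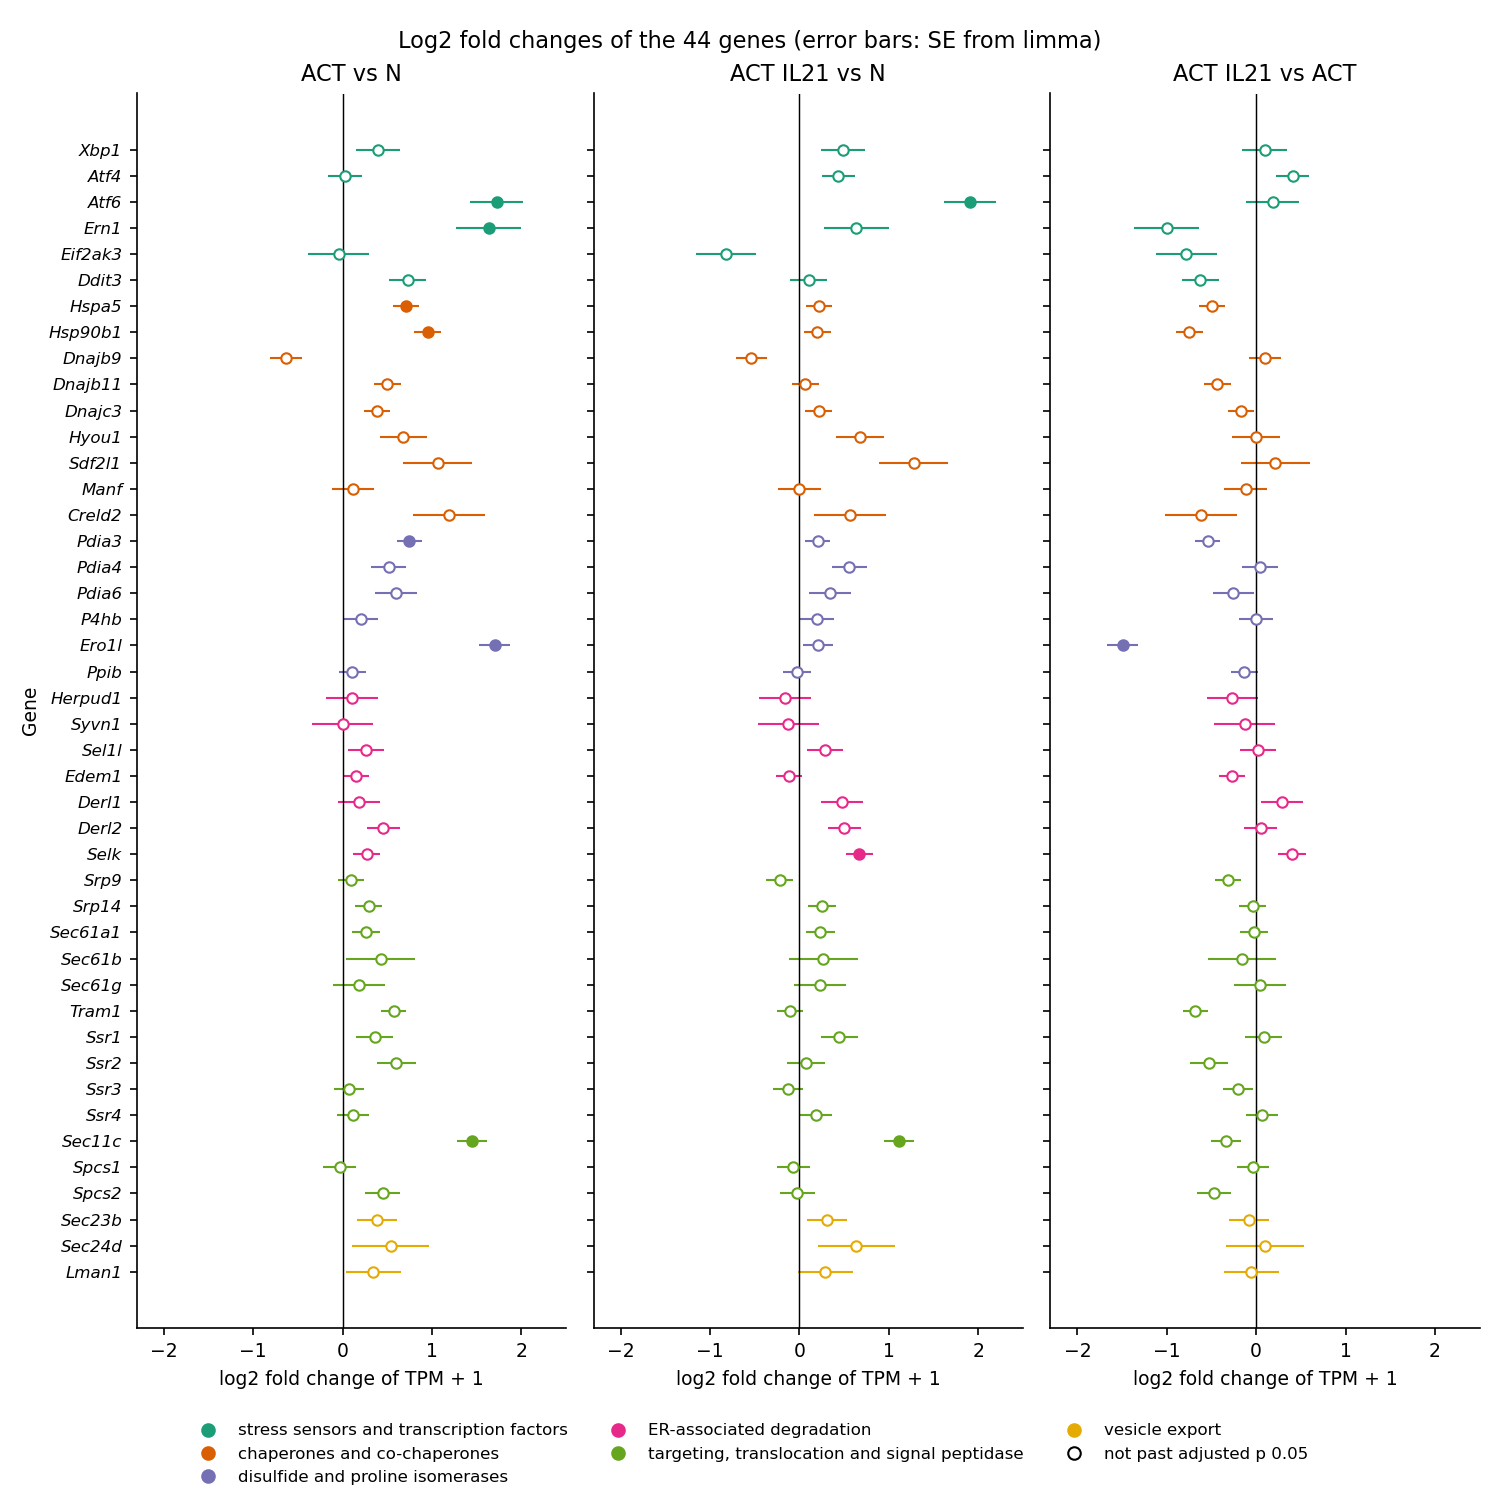
Log2 differences of all 44 genes, grouped by role, in each of the 3 comparisons, with bars of 1 SE and filled marks for an adjusted p under 0.05 (limma on log2(TPM + 1), 2 libraries a pool). In ACT against N 40 of 44 estimates lie above 0, against 52.1% of all tested genes. In ACT IL21 against ACT 30 of 44 lie below it, against 5781 of 13311.

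By the mean of the 2 libraries, 28 of the 44 genes (63.6%) were highest in ACT, 13 (29.5%) in ACT IL21 and 3 (6.82%) in N, whereas 32.0%, 40.2% and 27.8% of all tested genes peaked in these pools. The genes highest in ACT included 7 of 9 chaperones, 5 of 6 isomerases and 9 of 13 targeting genes. Those highest in ACT IL21 included 4 of 7 degradation genes and 3 of 6 sensors and factors. N held the lowest mean of 32 genes, ACT IL21 of 11 and ACT of 1. Within a pool the higher library exceeded the lower by 1.12 times in N, 1.18 in ACT and 1.13 in ACT IL21 at the median gene.

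Some of the genes have a close paralogue with the same role. Their ratio within a library does not change when all values of that library are multiplied by 1 factor, though quantile normalization can change it. The 8 pairs were chosen after their values had been seen, and the ratios are given as a description. Sec11c stood at 0.490 and 0.611 times Sec11a, the other catalytic subunit of the signal peptidase, in N, at 1.89 and 2.66 times in ACT and at 1.52 and 1.66 times in ACT IL21. The more abundant of the pair was Sec11a in N and Sec11c in both ICOS+ pools. Sec11a itself was at 265 and 278 TPM in N and 202 and 164 in ACT, short of the threshold (limma adjusted p = 0.0900). Ero1l stood at 2.23 and 2.85 times Ero1lb in N, 8.18 and 6.86 times in ACT, and 3.77 and 4.13 times in ACT IL21. Atf6 stood at 0.801 and 0.595 times Atf6b in N, 2.08 and 1.70 times in ACT, and 2.90 and 1.47 times in ACT IL21. Sec61a1 exceeded Sec61a2, the second form of the channel's main subunit, by 5.14 and 4.81 times in N and by 4.81 and 5.95 times in ACT IL21, but by 29.6 and 14.4 times in ACT. There Sec61a2 was at 3.17 and 7.61 TPM, against 16.1 to 20.0 TPM in the other 4 libraries. Its difference between ACT and N was short of the threshold (limma adjusted p = 0.0618). Sdf2l1 was at 0.0638 to 0.216 times Sdf2, lowest in N. For Tram1 over Tram2 the ACT ratios, 22.5 and 26.6, were above the others (10.5 to 21.5), while Sec23b over Sec23a and Edem1 over Edem2 overlapped between pools.

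**Figure D5:**
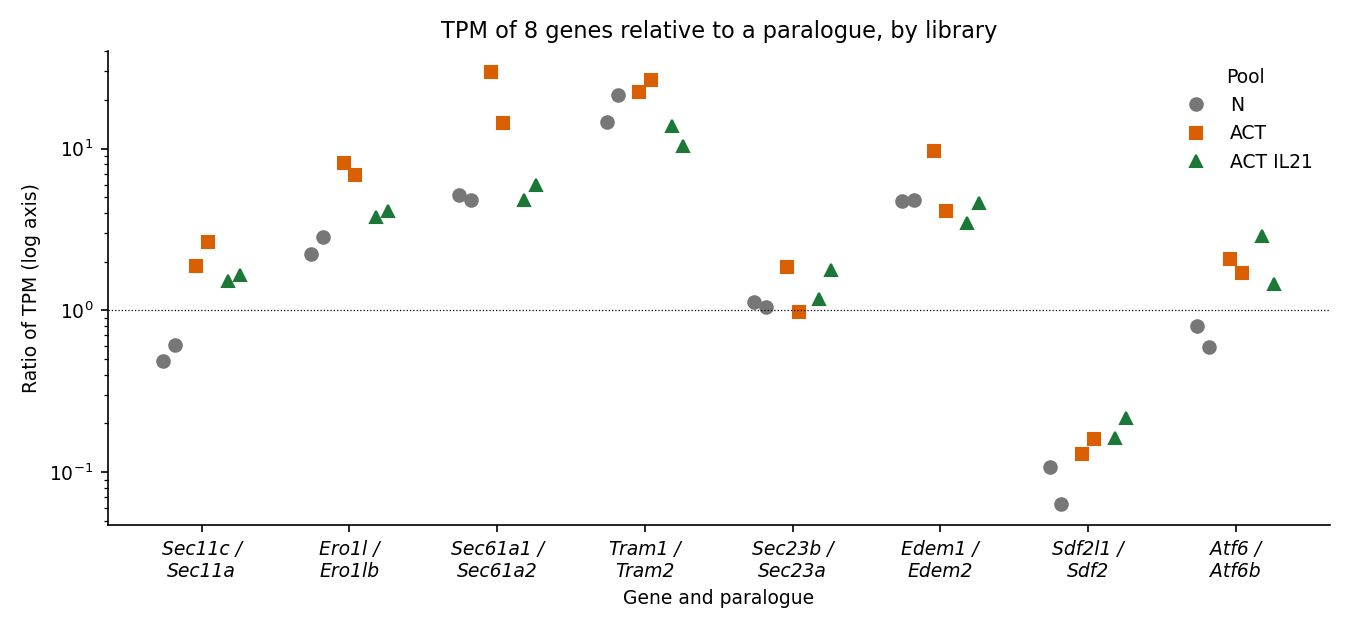
Ratio of each gene to its paralogue in each library, on a log axis, with points for libraries of the 3 pools. Sec11c over Sec11a lies below 1 in N and above 1 in every ICOS+ library, and Ero1l over Ero1lb and Sec61a1 over Sec61a2 are highest in ACT.

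The rest of the pathway was read from a further list of 111 genes, of which 110 were in the table and 102 were tested. In ACT against N 1 was higher and 0 lower, where 4.15% and 1.43% of all tested genes were. In ACT IL21 against N 1 was higher and 1 lower, against 3.82% and 1.26% of all tested genes. In ACT IL21 against ACT 0 passed the threshold (limma), against 0.796% higher and 1.15% lower of all tested genes. At an unadjusted p under 0.05, 5 were higher and 7 lower in this last comparison, against 1130 and 848 of the 13311. The median log2 differences were 0.21, 0.15 and -0.06, against 0.02, 0.10 and 0.08 over all tested genes. Eif2ak2, the kinase PKR, senses double-stranded RNA and acts on the same initiation factor as PERK. It stood at 27.9 and 29.9 TPM in N, 56.1 and 64.8 in ACT, and 47.5 and 47.8 in ACT IL21. ACT was higher than N (log2 difference 1.04 ± 0.19, limma adjusted p = 0.0176). ACT IL21 lay above N by 0.70 ± 0.19, short of the threshold (limma adjusted p = 0.0824). Ddit4, a stress-induced inhibitor of mTOR signalling, stood at 9.78 and 11.3 TPM in N, 13.6 and 16.7 in ACT, and 25.5 and 26.9 in ACT IL21, the last above N by 1.24 ± 0.27 (limma adjusted p = 0.0404). Stt3b, a catalytic subunit of the enzyme that attaches N-glycans, was at 96.9 and 84.0 TPM in N, 54.1 and 59.2 in ACT, and 47.7 and 40.2 in ACT IL21, the last below N by a log2 difference of -1.03 ± 0.18 (limma adjusted p = 0.0189). N was the highest pool for Stt3b. With 1 library left out, the call of Eif2ak2 held only without ACT replicate 1 (adjusted p of up to 0.164), and those of Ddit4 and Stt3b only without an ACT library (adjusted p of up to 0.257 and 0.188). Among the other alternatives, Eif2ak2 was lost with no intensity trend and with the 2 pools fitted alone, and Stt3b with no intensity trend. Ddit4 was lost there under median scaling, quantile normalization, no filter and no intensity trend.

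Among the 19 other ER chaperones and folding enzymes tested, 17 estimates were above 0 in ACT against N, with a median of 0.44. Over all tested genes 52.1% were above 0, with a median of 0.02. In ACT IL21 against ACT 14 were below 0, with a median of -0.30, against 5781 of the 13311 and a median of 0.08. None passed the threshold in any comparison. At an unadjusted p under 0.05, 5 were higher in ACT than in N, against 1541 of the 13311. Calr, the lectin chaperone that works with Pdia3, stood at 146 and 163 TPM in N, 283 and 228 in ACT, and 143 and 179 in ACT IL21. ACT lay above the other 4 libraries, 0.71 ± 0.18 above N (limma adjusted p = 0.0624). The lists of vesicle coat and cargo genes (26 tested) and of other degradation genes (13 tested) had medians of 0.16 and 0.21 in ACT against N, with 0 past the threshold. The median over all tested genes was 0.02. In ACT against N, the list of other targeting, translocation and signal peptidase genes (12 tested) had 7 estimates above 0 and 5 below. Its median was 0.08. In ACT IL21 against ACT 8 of its estimates were above 0 and 4 below, with a median of 0.18. The 13 targeting and translocation genes described earlier had medians of 0.29 and -0.16 in these comparisons, so the further list did not share their pattern.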

How the data were processed

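RNA of FACS-purified CD4+ cells was extracted with RNeasy kits, and polyadenylated RNA was amplified with a NuGEN Ovation kit, per the labels' protocols. Per the submitters' processing notes, Trimmomatic, Bowtie, RSEM and build GRCm38 were used, with no versions. The authors deposited gene-level TPM, 1 column per library. RSEM divides reads shared by several genes by estimation, so values of near-identical or overlapping genes are uncertain, and the strand setting is not given in the sources used here. TPM keeps no depth, so the depth of each library is unknown and no counting interval or floor is given. Each library held 12095 to 12396 genes at 1 TPM or more, and no gene of the 44 was at 0 in any. Because TPM has a fixed total, a rise of some transcripts lowers the rest.

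The table held 38355 entries and 38216 symbols. Entries of a repeated symbol were summed. Genes that reached 1 TPM in 2 or more libraries were fitted on log2(TPM + 1) with limma 3.58.1 (R 4.3.3), with pool as the term, all 6 libraries in 1 fit, an intensity trend and Benjamini-Hochberg adjustment over 13311 genes (threshold 0.05). Folds are ratios of mean TPM, and log2 differences with the pseudocount of 1 understate changes of low genes. The fit has 3 residual degrees of freedom. The comparisons of ACT and of ACT IL21 with N share the N libraries. The procedure was tested on simulated data. That simulation used independent noise and known changes larger than several of those called here. It says nothing on the recovery of such smaller changes. Genes given with values in every library were the classical sensors and factors, Hspa5, every gene past the threshold, and in each role the most abundant and the most changed gene. Dnajb9, Calr, Creb3l2 and the paralogue pairs were chosen after their values were seen, and so were the other genes of the 44 named with a log2 difference or range. The 44 genes, the role groups and all lists were chosen with earlier results of these data known. Alternatives were other pseudocounts (0.1 and 0.5), filters, scalings and spread models, a replicate block, the 2 pools alone, and leaving out each library. Replicate numbers were not used to pair libraries.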

Additional observations from a re-analysis of the deposited data

How the results depend on the processing

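The counts of genes past the threshold and the log2 differences of 24 genes were recomputed under 16 alternatives, 6 of which left out 1 library. Sums, shares, non-overlap counts, marker lists, paralogue ratios and the other genes were not recomputed. The number of secretory genes past the threshold in ACT against N, 7, was 4 without an intensity trend, 2 with the 2 pools fitted alone and 2 to 3 with 1 library left out. In ACT IL21 against N, 3 became 1 without an intensity trend and 0 to 2 with 1 library left out. In ACT IL21 against ACT, 1 became 2 with the 5 TPM filter, with rescaling and with quantile normalization, and 0 to 1 with 1 library left out. The further pathway list, with 1, 2 and 0 calls, gave 0 to 2 calls in ACT against N and 0 to 2 in ACT IL21 against N with 1 library left out. It gave 3 in the first comparison with the 5 TPM filter and 0 without an intensity trend, and 1 in the second without a filter, with median scaling, with quantile normalization and without an intensity trend. Over all genes, 743, 677 and 259 calls became 469, 410 and 124 without a filter. With the 2 pools alone, ACT against N gave 417, ACT IL21 against N 715 and ACT IL21 against ACT 92. With 1 library left out they ran from 205 to 526, 75 to 728 and 0 to 81. The cause of these shifts was not tested, beyond the fewer libraries or larger number of genes in the fit.

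The replicate block gave 6, 3 and 1 secretory calls and 784, 732 and 284 over all genes. Same-numbered libraries deviated together with correlations of 0.21, -0.0040 and 0.00078 for N with ACT, N with ACT IL21 and ACT with ACT IL21. The labels give these numbers no shared source, and whether they pair N with ACT cannot be settled with 2 libraries a pool.

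Of 1152 recomputed log2 differences of named genes, 1040 kept their direction and side of the threshold, 84 lost the threshold, 3 gained it and 25 changed sign, none of the last from a called value. Under other scalings Atf4 in ACT against N became -0.014 with rescaling, -0.0079 with median scaling and -0.079 with quantile normalization. In ACT IL21 against N, Calr became -0.017, -0.053 and -0.068 under these 3, and Ddit3 -0.049 with quantile normalization. In ACT IL21 against ACT, median scaling gave -0.020 for Pdia4 and -0.017 for Derl2. The other changes of sign came from leaving out 1 library. Values then ran from -0.16 to 0.22 for Atf4 and from -0.21 to 0.12 for Eif2ak3 in ACT against N, and from -0.11 to 0.21 for Calr in ACT IL21 against N. In ACT IL21 against ACT they ran from -0.23 to 0.41 for Xbp1, -0.036 to 0.41 for Atf6, -0.023 to 0.23 for Dnajb9, -0.16 to 0.25 for Pdia4, -0.12 to 0.21 for Derl2, -0.25 to 0.098 for Sec23b and -0.35 to 0.55 for Sec24d. The cause was not tested. With 2 libraries a pool and unknown depth, small differences were not detectable.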

Other observations

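Some genes of the wider pathway that are known for strong stress or for specialised secretory cells were at or near 0 in every pool. Fkbp11, an isomerase of plasma cells, and Creb3l3, a membrane-bound factor of liver, were listed at 0 in all 6 libraries. Chac1 and Atf3, which follow ATF4 in acute stress, reached at most 0.38 and 0.11 TPM, and Pdia5 at most 0.52 TPM. Of all 38216 symbols, 13311 passed the filter on low values. Chac1 and Atf3 belong to a list of 19 genes of the PERK and ATF4 arm. Trib3 of that list reached at most 1.35 TPM, but Ppp1r15a stood at 84.2 to 122 TPM and Psat1 at 31.2 to 77.7. Of the 16 tested, 11 estimates were above 0 in ACT against N, against 52.1% of all tested genes. Their median was 0.21, against 0.02. Creb3l2, an ER membrane factor related to ATF6, was at 2.61 and 1.67 TPM in N, 5.70 and 4.55 in ACT, and 7.49 and 10.2 in ACT IL21. Its pools did not overlap, in the order N, ACT, ACT IL21, and the log2 difference of ACT IL21 from N was 1.65 ± 0.41 (limma adjusted p = 0.0647), which did not pass the threshold. It was named after its values were seen.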
